A study of Mus musculus with 18 samples.

Results

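The genes described are the 10 ligands, receptors and SMAD proteins of transforming growth factor beta (TGF-beta): Tgfb1, Tgfb2, Tgfb3, Tgfbr1, Tgfbr2, Tgfbr3, Smad2, Smad3, Smad4 and Smad7. They were taken by gene symbol, and all 10 were found in both deposited gene tables, which together list 25005 genes. All 10 passed the filter on low counts in both comparisons. The material was tumour tissue from liver metastases in mice, grown from the mouse colon carcinoma line MC38 after injection into the spleen. There were 18 libraries in 4 groups. The HFD group was 5 tumour libraries of wild-type mice on a high-fat diet, and the LFD group was 5 tumour libraries of wild-type mice on a low-fat diet. The shYap group was 4 tumour libraries, and the shCon group 4, of wild-type mice that were all on the high-fat diet. For these groups the genotype label is a short hairpin RNA named for Yap or a control hairpin. The labels do not say which cells carried the hairpin, and the age, sex and strain of the mice and the length of feeding are not given in the sources used here. Nothing in the labels ties each library to an animal of its own. The p-values are therefore set against the spread between the libraries sequenced, which may be technical.

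TGF-beta ligands are secreted in a latent complex that is held in the extracellular matrix and must be released before they can bind. The ligand brings the receptor kinases TGFBR2 and TGFBR1 together, with TGFBR3 (betaglycan) as a co-receptor that presents ligand. TGFBR1 then phosphorylates SMAD2 and SMAD3, which join SMAD4 and enter the nucleus to switch genes on or off, while SMAD7 is induced by the pathway and blocks it. In liver tumours the pathway is known for driving fibroblasts to lay down matrix and for dampening T cells. Levels of these genes in bulk tissue come from tumour, stromal, immune and liver cells alike, and fewer cells of a type cannot be told apart from less RNA per cell.

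The 250 bases upstream of the annotated start are shown for 4 genes, from RefSeq on GRCm38.p6. These genes were chosen by their place in the results among the genes with a promoter entry. Smad3 was higher in HFD tumours, Tgfb1 and Tgfb2 were the ligands with the highest and the lowest level per length of the principal transcript, and Tgfbr2 had the highest level of all. A promoter entry was matched for 5 of the 10 genes. None was matched for Tgfb3 and Tgfbr3, whose diet log2 fold changes (0.88 and 0.99) were larger than that of Smad3 (0.83). The 4 motifs searched, on both strands, did not overlap each other where found. They were CAGAC, a SMAD-binding element, GGAATG, the core that TEAD factors bind, TGACGTCA, the cAMP response element, and GGGCGG, the GC box of SP1. Matches stand in capitals, and a match in capitals that is not one of these words is the motif on the other strand, such as CCGCCC for the GC box.
Smad3 (chr9:63757995-63758244, minus strand): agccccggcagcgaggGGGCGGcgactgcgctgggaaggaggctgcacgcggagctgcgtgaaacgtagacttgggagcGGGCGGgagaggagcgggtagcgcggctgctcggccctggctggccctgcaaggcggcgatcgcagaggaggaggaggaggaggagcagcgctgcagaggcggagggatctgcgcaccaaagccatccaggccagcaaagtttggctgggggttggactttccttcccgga
Tgfb1 (chr7:25686752-25687001, plus strand): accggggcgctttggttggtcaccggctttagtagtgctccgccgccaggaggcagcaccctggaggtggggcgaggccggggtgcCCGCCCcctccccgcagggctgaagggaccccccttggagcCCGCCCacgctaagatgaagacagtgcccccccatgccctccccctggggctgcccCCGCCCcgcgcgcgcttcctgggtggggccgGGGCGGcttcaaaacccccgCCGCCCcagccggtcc
Tgfb2 (chr1:186705990-186706239, minus strand): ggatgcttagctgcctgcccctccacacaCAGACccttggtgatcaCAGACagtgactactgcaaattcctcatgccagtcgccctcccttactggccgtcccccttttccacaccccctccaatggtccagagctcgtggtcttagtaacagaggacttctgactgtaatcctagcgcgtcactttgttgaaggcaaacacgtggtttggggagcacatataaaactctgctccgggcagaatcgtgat
Tgfbr2 (chr9:116175364-116175613, minus strand): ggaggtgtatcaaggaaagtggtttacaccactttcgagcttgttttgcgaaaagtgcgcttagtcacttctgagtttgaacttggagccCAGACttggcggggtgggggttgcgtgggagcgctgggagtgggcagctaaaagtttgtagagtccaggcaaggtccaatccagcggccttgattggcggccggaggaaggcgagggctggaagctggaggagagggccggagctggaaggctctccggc

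The Smad3 window held 2 GGGCGG motifs and the Tgfb1 window 5, and neither held another of the motifs. The Tgfb2 window held 2 CAGAC motifs and the Tgfbr2 window 1. The same search over 32851 RefSeq promoter windows of that length found GGGCGG in 32.7%, CAGAC in 42.2%, GGAATG in 12.6% and TGACGTCA in 1.5%. A match describes these letters only.

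Each table was normalised alone, and values are CPM, the count scaled to a fixed total per library, with the library size scaled by trimmed mean of M values (TMM). Total estimated counts were 17766207 to 18474191 per library in the diet table and 17207214 to 21309950 in the hairpin table. Yap1, the gene named by the hairpin, had 71.6, 80.03, 81.4 and 70.5 CPM in the libraries labelled shYap, against 78.1, 82.4, 73.8 and 77.4 CPM in shCon, a log2 fold change of -0.04 ± 0.11 (SE; edgeR quasi-likelihood test, Benjamini-Hochberg adjusted p = 0.937). The 95% interval of the fold was 0.824 to 1.15 and the groups overlapped. The libraries labelled shYap were thus not set apart by a lower Yap1 level, and every direction given for them rests on the label alone. Xist, the RNA that coats the inactive X chromosome in females, was at 0.0505 to 0.293 CPM in HFD and 72.9 to 135 CPM in LFD, and at most 0.203 CPM in the hairpin table, so what Xist marks and the diet cannot be told apart. The epithelial markers Epcam and Cldn7, known from colon epithelium, were at or under 2.42 CPM in every library, whereas the keratin Krt8 was at 19.9 CPM or more in every library.

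Set per kilobase of transcript, the receptor gene Tgfbr2 had the highest level of the 10 genes in all 4 groups, followed by Tgfb1, and Tgfb2 had the lowest. Tgfbr2 averaged 88.4 ± 5.2 CPM per kb in HFD and 70.04 ± 16.6 in LFD (SD, n = 5 each), and 82.3 ± 9.48 in the libraries labelled shYap and 79.02 ± 5.39 in shCon (SD, n = 4 each). Tgfb1 followed at 50.3 ± 3.57 CPM per kb in HFD and 49.7 ± 15.8 in LFD, and at 73.0 ± 13.7 in shYap and 76.3 ± 3.99 in shCon. The library ranges of Tgfbr2 and Tgfb1 overlapped in LFD, shYap and shCon but not in HFD. Tgfb2 averaged 0.905 CPM per kb in HFD, 0.899 in LFD, 0.769 in shYap and 0.802 in shCon, under every other member without overlap in each group.

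The middle of the order differed between groups. In HFD it ran from Smad3 (27.6 ± 3.37 CPM per kb) through Tgfb3 (25.3 ± 4.02), Tgfbr3 (23.96 ± 1.69) and Tgfbr1 (18.05 ± 3.30), each overlapping its neighbour, and all of Smad4 (9.24 ± 0.624), Smad2 (6.95 ± 0.301) and Smad7 (6.48 ± 0.504) lay below these. In LFD, Tgfbr1 came before Smad3, Tgfb3 and Tgfbr3, at 18.3 ± 1.89, 15.5 ± 3.41, 13.8 ± 3.08 and 12.03 ± 6.08 CPM per kb, again with overlap between neighbours. In the libraries labelled shYap the order was Tgfbr3 (19.1 ± 15.5), Tgfb3 (17.3 ± 8.89), Smad3 (16.05 ± 3.49) and Tgfbr1 (11.01 ± 1.25), and in shCon it was Tgfb3 (15.4 ± 2.31), Smad3 (15.02 ± 1.01), Tgfbr1 (14.3 ± 1.91) and Tgfbr3 (10.25 ± 1.54), with every neighbour overlapping. Smad2 and Smad7 overlapped in all 4 groups. The length used matters for Tgfb1, whose longest principal transcript is 2.175 kb while its exons together span 5.042 kb. It matters too for Tgfbr2, where these lengths are 3.476 and 8.187 kb. With the length of all exons, chosen after seeing the data, Tgfb1 took rank 5 in HFD at 21.7 ± 1.54 CPM per kb and kept rank 2 in the other groups. Tgfbr2 kept rank 1 in all 4 groups, and in HFD it stood at 37.5 ± 2.21 CPM per kb with Smad3 next at 25.4 ± 3.10.

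**Figure D1:**
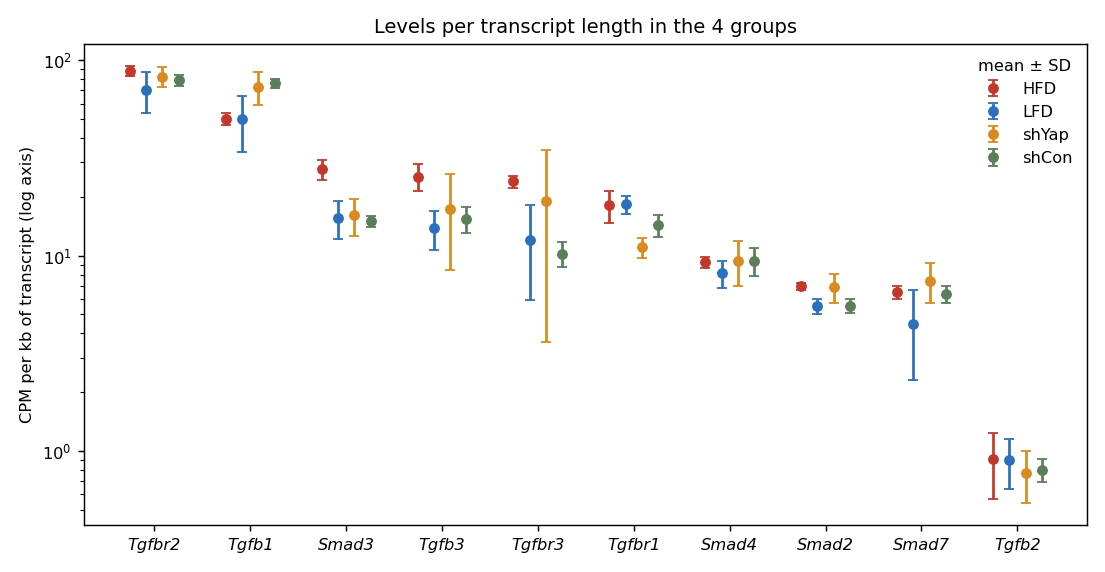
Mean level of each gene in CPM per kb of its longest principal transcript (vertical, log axis) in HFD, LFD, shYap and shCon (colours; bars, SD; n = 5, 5, 4 and 4), with each table normalised alone. Tgfbr2 stands highest at 70.04 to 88.4 CPM per kb and Tgfb2 lowest at 0.769 to 0.905.

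The diet comparison asks how these genes differed between tumours of high-fat-fed and low-fat-fed mice. Tgfb3, Tgfbr3, Smad2 and Smad3 were higher in HFD tumours, and no member was lower. Tgfb3 and Smad3 were 1.84-fold and 1.78-fold higher, Tgfbr3 1.99-fold and Smad2 1.26-fold. Thus a ligand, a co-receptor and both receptor-activated SMADs passed the test, whereas Tgfb1, Tgfb2, both receptor kinases, Smad4 and Smad7 did not. The count of 4 of 10 stood against 41.1% of all 16340 genes tested that passed in either direction, made up of 19.4% higher and 21.6% lower. The median log2 fold change was 0.34 over the 10 members and -0.002 over all genes tested.

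**Figure D2:**
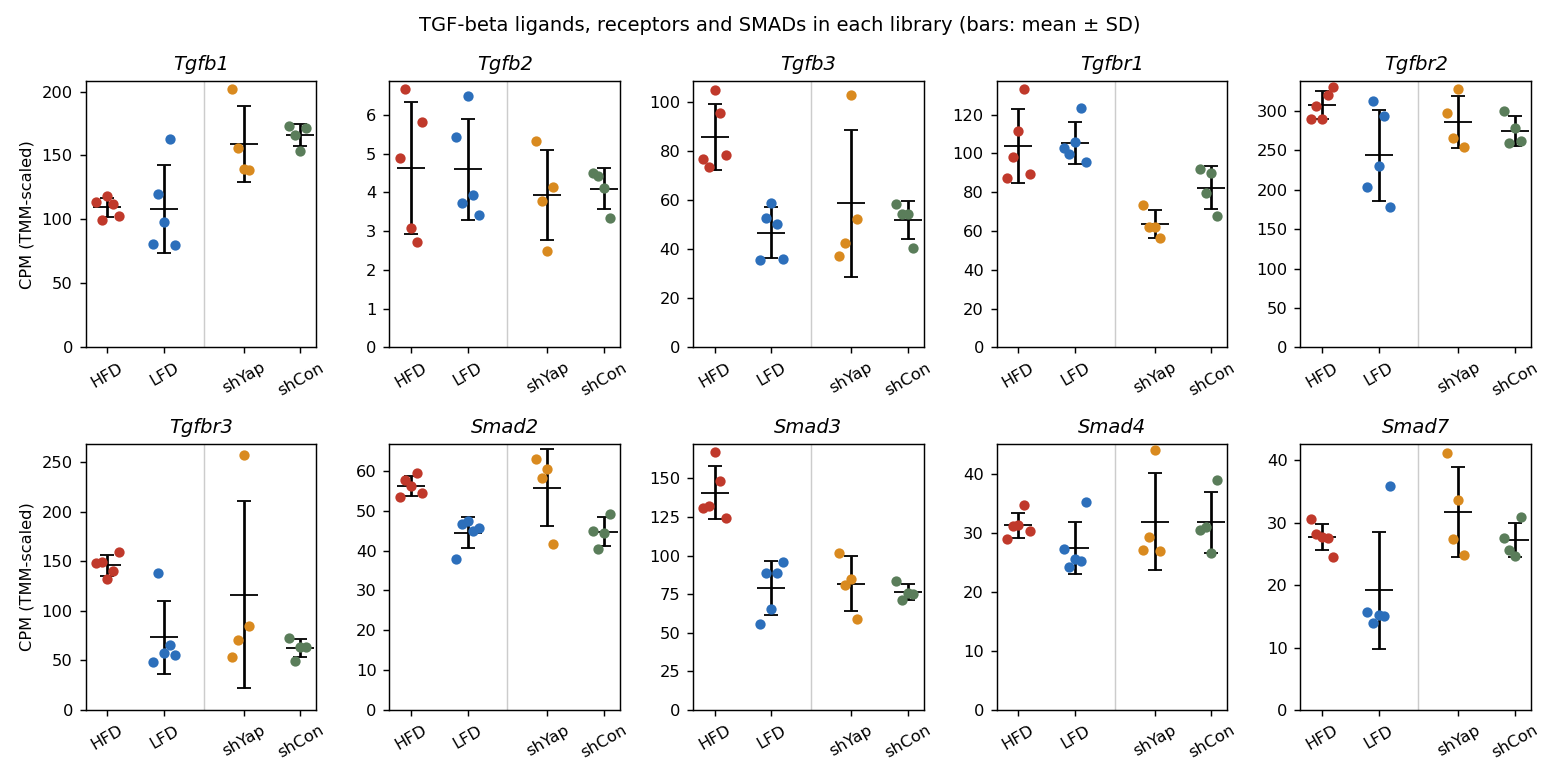
CPM of each gene in every library (points) with mean and SD (bars) for HFD, LFD, shYap and shCon, n = 5, 5, 4 and 4. Tgfb3, Smad2 and Smad3 show HFD points all above the LFD points, and LFD replicate 2 for Tgfbr3, LFD replicate 5 for Smad7 and shYap replicate 3 for Tgfbr3 stand far above the rest of their groups.

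Among the ligands, Tgfb3 (ENSMUSG00000021253.7, chr12:86056745-86079041 on GRCm38, minus strand) separated the diets. It had 76.6, 73.6, 105, 95.5 and 78.3 CPM in HFD replicates 1 to 5, against 35.6, 52.8, 58.7, 50.3 and 35.97 CPM in LFD replicates 1 to 5. Every HFD library lay above every LFD library, a log2 fold change of 0.88 ± 0.17 (SE; 95% interval of the fold 1.42 to 2.37; adjusted p = 0.00265). Groups that did not overlap were found for 3 members, each higher in HFD, against 30.6% of all genes tested (15.8% higher and 14.8% lower). Exons of Tgfb3 share bases with Gm37804 and Gm48008 on the opposite strand. Without a stated library strand, reads of these genes cannot be told apart.

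Tgfb1 (ENSMUSG00000002603.15, chr7:25687002-25705077), the ligand made by many immune and stromal cells, had 114, 99.6, 118, 112 and 103 CPM in HFD, against 80.6, 119.6, 98.03, 162 and 80.2 CPM in LFD. The HFD values lay within the LFD range, with a log2 fold change of 0.02 ± 0.18 (adjusted p = 0.954) and a 95% interval of the fold from 0.762 to 1.34. Its coefficient of variation was 7.1% in HFD and 31.8% in LFD. Tgfb2 (ENSMUSG00000039239.14, chr1:186622792-186705989), an isoform best known from development, was low in both diets, at 2.72 to 6.67 CPM in HFD and 3.42 to 6.48 CPM in LFD. Its fold of 1.01 had a 95% interval of 0.647 to 1.56, so changes within that interval were not excluded by these libraries. Tgfb2 also shares exon bases with Gm29491 on the opposite strand.

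The balance of the ligands is described here without a test. The ratio of Tgfb3 to Tgfb1 CPM was 0.674 to 0.886 in HFD and 0.309 to 0.599 in LFD, with no overlap. Per kilobase, Tgfb3 made up 33.0% ± 2.54 of the summed ligand level in HFD and 21.9% ± 3.83 in LFD (SD, n = 5 each), and Tgfb1 made up 65.8% ± 2.18 in HFD and 76.7% ± 4.24 in LFD. Using the length of all exons, the Tgfb3 share was 52.8% ± 3.01 in HFD and 38.7% ± 5.20 in LFD, so the share itself hung on the length and the order of the diets did not.

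Among the receptors, the co-receptor gene Tgfbr3 (ENSMUSG00000029287.14, chr5:107106570-107289629, minus strand) had the largest log2 fold change of the 10 members. It had 149, 149.5, 132, 140.0 and 159 CPM in HFD, against 48.5, 138, 57.9, 66.03 and 55.3 CPM in LFD. LFD replicate 2 lay inside the HFD range, and the other LFD libraries were below it. The log2 fold change was 0.99 ± 0.26 (adjusted p = 0.0134), and 1.36 without LFD replicate 2 (adjusted p = 6.93e-05). The call was lost when the closest HFD libraries, replicates 1 with 2 and 3 with 4, were summed (1.02, adjusted p = 0.0557), and when LFD replicates 1 and 5 were left out together (0.75, adjusted p = 0.0672). Exons of Tgfbr3 share bases with Gm43422 on the same strand, and 0% of its values in the diet table were whole numbers within 0.01, so its counts are estimates in which reads may be split with other genes.

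Tgfbr2 (ENSMUSG00000032440.13, chr9:116084293-116175360), the kinase that binds ligand first, had 290.1, 306, 289.6, 320.2 and 330.3 CPM in HFD, against 204, 312, 229.5, 294 and 178 CPM in LFD. The HFD libraries lay close together with a coefficient of variation of 5.9%, against 23.7% in LFD, and the groups overlapped. The log2 fold change of 0.34 ± 0.15 did not pass (adjusted p = 0.0948), but did without LFD replicate 2 (0.44, adjusted p = 0.0265), and was 0.16 without LFD replicates 1 and 5 (adjusted p = 0.243). Tgfbr1 (ENSMUSG00000007613.15, chr4:47353222-47414931), the kinase that phosphorylates the SMADs, had 87.3, 97.9, 111, 133 and 89.6 CPM in HFD, against 102, 99.5, 106, 124 and 95.6 CPM in LFD. These values overlapped throughout, with a fold of 0.986 and a 95% interval of 0.813 to 1.20 (adjusted p = 0.911).

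Among the SMADs, both receptor-activated members were higher in HFD without overlap. Smad3 (ENSMUSG00000032402.12, chr9:63646767-63757994), the receptor-activated SMAD that binds DNA itself and whose upstream sequence is shown above, had 131, 132, 167, 148 and 124 CPM in HFD, against 56.03, 88.6, 65.2, 89.1 and 96.2 CPM in LFD. Its log2 fold change was 0.83 ± 0.16, with a 95% interval of the fold from 1.40 to 2.26 (adjusted p = 0.00258). Smad2 (ENSMUSG00000024563.16, chr18:76241580-76310963), whose main form needs SMAD4 to reach DNA, had 53.4, 57.7, 56.2, 59.5 and 54.4 CPM in HFD, against 37.8, 46.6, 47.4, 44.9 and 45.7 CPM in LFD. The difference was smaller but the libraries were tight, with a log2 fold change of 0.34 ± 0.07 (adjusted p = 0.00561). The ratio of Smad3 to Smad2 CPM was 2.29 to 2.97 in HFD and 1.38 to 2.10 in LFD, again with no overlap. The other ratio computed, Tgfbr3 to Tgfbr2 CPM, did overlap, at 0.437 to 0.512 in HFD and 0.225 to 0.444 in LFD. No ratio was tested, and Tgfb3 and Smad3 by themselves already showed no overlap.

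Smad7 (ENSMUSG00000025880.11, chr18:75367529-75395935), the inhibitory SMAD, had 30.6, 28.2, 27.8, 27.6 and 24.6 CPM in HFD, against 15.7, 13.99, 15.3, 15.03 and 35.9 CPM in LFD. LFD replicate 5 lay above all HFD libraries, while the other LFD libraries lay below all of them. With it, the log2 fold change was 0.54 ± 0.25 (adjusted p = 0.111), and without it 0.90 (adjusted p = 7.79e-05). With upper-quartile factors and all libraries kept, Smad7 also passed (0.64, adjusted p = 0.0404). Smad4 (ENSMUSG00000024515.13, chr18:73639009-73703780), the shared partner of the receptor-activated SMADs, had 29.01, 31.1, 31.4, 34.7 and 30.2 CPM in HFD, against 27.2, 24.2, 25.6, 25.1 and 35.1 CPM in LFD. Here too LFD replicate 5 stood above its group in CPM, and the log2 fold change was 0.19 ± 0.11 (adjusted p = 0.189) with it and 0.31 without it (adjusted p = 0.00807). The estimated Smad4 count of that library, 432, lay within the 396 to 480 of the other LFD libraries. Its TMM factor was 0.684, against 0.821 to 1.057 in the other LFD libraries. Smad4 likewise passed with upper-quartile factors and all libraries kept (0.28, adjusted p = 0.0339).

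**Figure D3:**
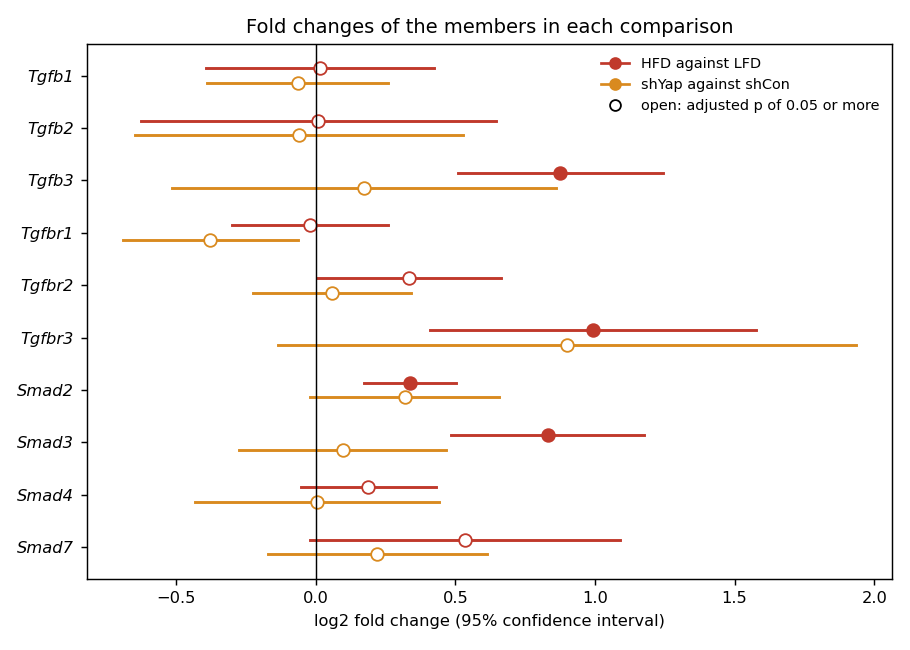
Log2 fold change of each gene (points) with 95% interval (lines) for HFD over LFD and for shYap over shCon, where filled points passed an adjusted p of 0.05. Tgfb3 (0.88), Tgfbr3 (0.99), Smad2 (0.34) and Smad3 (0.83) passed for diet, and 0 of 10 passed for the hairpin.

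Some markers of other cell types differed with diet beside these genes. The summed level of 10 hepatocyte markers was 281 to 2805 CPM in HFD and 9557 to 84740 CPM in LFD, with 10 of 10 lower in HFD. The summed level of 8 fibroblast markers was 6385 to 8495 CPM in HFD and 2914 to 5512 CPM in LFD, with 4 of 8 higher and 0 lower. All 7 T cell markers were lower, at 11.02 to 40.9 CPM summed in HFD against 27.6 to 103 CPM in LFD, and so were 3 of 4 Kupffer cell markers, 2 of 4 neutrophil markers tested, 2 of 7 endothelial markers, 1 of 6 stellate cell markers and 1 of 5 epithelial markers tested. Of the 6 macrophage markers 0 passed in edgeR, and 1 of 4 platelet and megakaryocyte markers tested was higher. Of all genes tested, 19.4% were higher and 21.6% lower. The endothelial, stellate, epithelial and platelet counts lay near those shares. The part of these cells in the members' differences was not tested.

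LFD replicates 1 and 5 had the highest hepatocyte sums, 48230 and 84740 CPM, and the lowest Tgfb3 and Tgfbr2 levels and, in replicate 1, the lowest Smad2 and Smad3 levels of their group. The highest LFD level of Smad3, 96.2 CPM, was in replicate 5. Without both, an alternative chosen after seeing the data, the log2 fold changes were 0.69 for Tgfb3 (adjusted p = 0.00240), 0.30 for Smad2 (adjusted p = 0.00358) and 0.81 for Smad3 (adjusted p = 0.00132). Smad4 and Smad7 then passed as well, at 0.34 (adjusted p = 0.00537) and 0.93 (adjusted p = 6.47e-05), and Tgfb1 turned to -0.19 (adjusted p = 0.305). The LFD libraries with the lower hepatocyte sums, replicates 2 and 4 at 9557 and 13340 CPM, had the highest Tgfb1 and Tgfbr2 levels of their group.

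**Figure D4:**
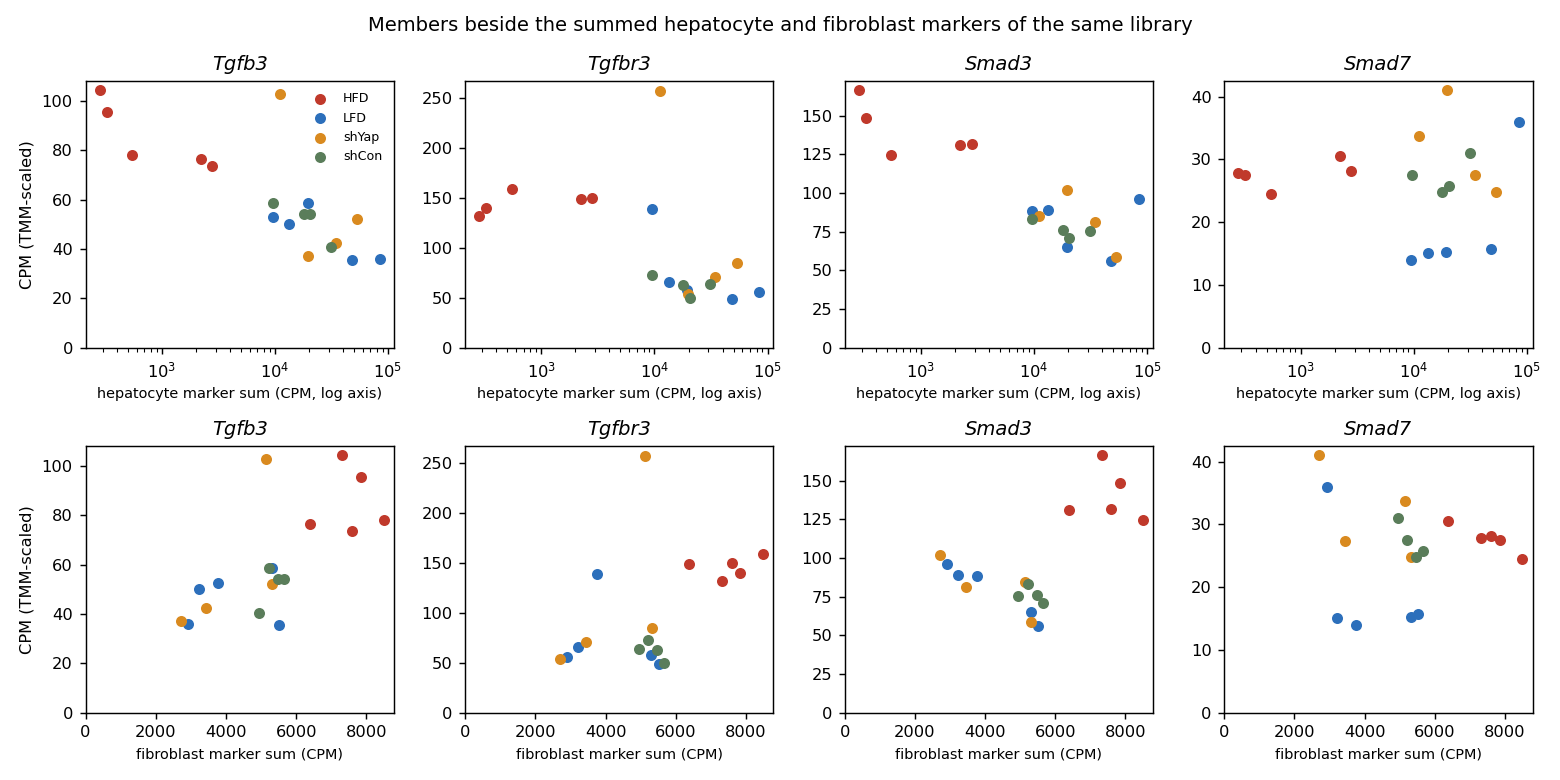
CPM of members (vertical) beside the summed CPM of hepatocyte and of fibroblast markers of the same library (horizontal), for HFD, LFD, shYap and shCon libraries, with each table normalised alone. HFD libraries lie at 281 to 2805 CPM of hepatocyte markers and LFD libraries at 9557 to 84740, with no overlap.

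Around the members, 24 of 82 other tested genes of the pathway were higher in HFD and 12 lower, against the 19.4% and 21.6% of all genes tested. The genes that store and release latent ligand were higher in 6 of 12 and lower in 1, with a list median of 0.39. Ltbp3, a latent TGF-beta binding protein, had 185 ± 24.9 CPM in HFD and 89.3 ± 17.2 in LFD (SD, n = 5 each; log2 fold change 1.05, adjusted p = 0.000563). Its relative Ltbp4 rose by 0.77, Fbn1, the microfibril protein to which these bind, by 0.88, and Itgb8, the integrin chain that frees latent ligand, by 1.16. Mmp14 and Itgav were the other genes that rose, at 0.39 and 0.40, and Furin, the protease that cuts the precursors, fell by 0.62 on the log2 scale.

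The negative regulators were higher in 3 of 10 and lower in 0, with a median of 0.12. Of all genes tested, 19.4% were higher and 21.6% lower. Pmepa1, an induced membrane protein that holds back SMAD2 and SMAD3, showed 263 ± 25.6 CPM in HFD and 99.6 ± 12.3 in LFD, a log2 fold change of 1.40 ± 0.10 (adjusted p = 4.27e-05). Ski and Tgif1, nuclear co-repressors, rose by 0.45 and 0.24, and Smurf2, a ubiquitin ligase for the pathway, was at -0.15 (adjusted p = 0.101). Of 19 tested genes known to be induced through SMAD2 and SMAD3, 7 were higher and 0 lower, with a median of 0.52. Ldlrad4 (0.91), the protease inhibitor Timp1 (0.83), the collagen gene Col3a1 (0.92) and the transcription factor Snai1 (0.82) led them by p. Col1a1, Col1a2 and Col3a1 are also in the fibroblast list and Dcn in both that list and the antagonists, so those counts share genes.

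Of 6 tested genes known as targets of the bone morphogenetic protein (BMP) branch through SMAD1 and SMAD5, 0 were higher and 4 lower, with a median of -1.63. Among all genes tested, 19.4% were higher and 21.6% lower. Hamp, the iron hormone hepcidin made by hepatocytes, had 4.84 ± 4.35 CPM in HFD and 239.6 ± 139 in LFD (log2 fold change -5.63, adjusted p = 0.00109), and Id2, Atoh8 and Msx1 were at -2.56, -2.67 and -0.70. The hepatocyte markers had a median of -5.40 in the same libraries. Smad5, a SMAD of that branch, was the 1 gene of 8 tested among other SMADs and partners that rose, with 286 ± 53.0 CPM in HFD and 175 ± 7.40 in LFD (0.70, adjusted p = 0.00163). Sp1, Smad1 and Zfyve9 were at 0.19, 0.18 and 0.14 and did not pass (adjusted p = 0.0700, 0.143 and 0.205).

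Of the other ligands, 2 of 10 were higher and 2 lower, with a median of -0.66. These counts lay near the shares of all genes tested, 19.4% higher and 21.6% lower. Inhba, the activin A chain that also signals through SMAD2 and SMAD3, had 146 ± 34.9 CPM in HFD and 50.4 ± 9.63 in LFD (1.53 ± 0.18, adjusted p = 0.000312). Inhbb was at 0.81 (adjusted p = 0.0427), Bmp4 at -0.65 (adjusted p = 0.0246) and Gdf10 at -1.66 (adjusted p = 0.0481). Gdf10 was low, with a mean of 1.33 CPM in HFD and 4.25 in LFD. Of the other receptors, 1 of 10 was higher and 4 lower: Acvr1 rose by 0.56, while Bmpr1b, Eng, Acvr1b and Acvrl1 were at -1.99, -0.71, -0.29 and -0.46. Bmpr1b was barely detected, with a mean of 0.559 CPM in HFD and 2.22 in LFD, and its groups overlapped. Of the extracellular antagonists, 4 of 7 were higher and 1 lower, led by the matrix proteoglycan Dcn (1.11, adjusted p = 0.00149). Chrd and Bgn rose by 0.99 and 0.72, Grem1 by 0.67, and Fmod fell by 0.64 on the log2 scale. Fmod was low, with a mean of 1.66 CPM in HFD and 2.60 in LFD. The calls of Bmp4, Inhbb, Gdf10, Fmod, Tgif1 and Msx1 were each lost under 3 or more of the alternatives, and those of Ski (0.44, adjusted p = 0.0551) and Bgn (0.73, adjusted p = 0.0517) with the closest HFD libraries summed. The outcomes of the alternatives for Mmp14, Itgav, Furin, Acvrl1 and Grem1 are not given here.

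**Figure D5:**
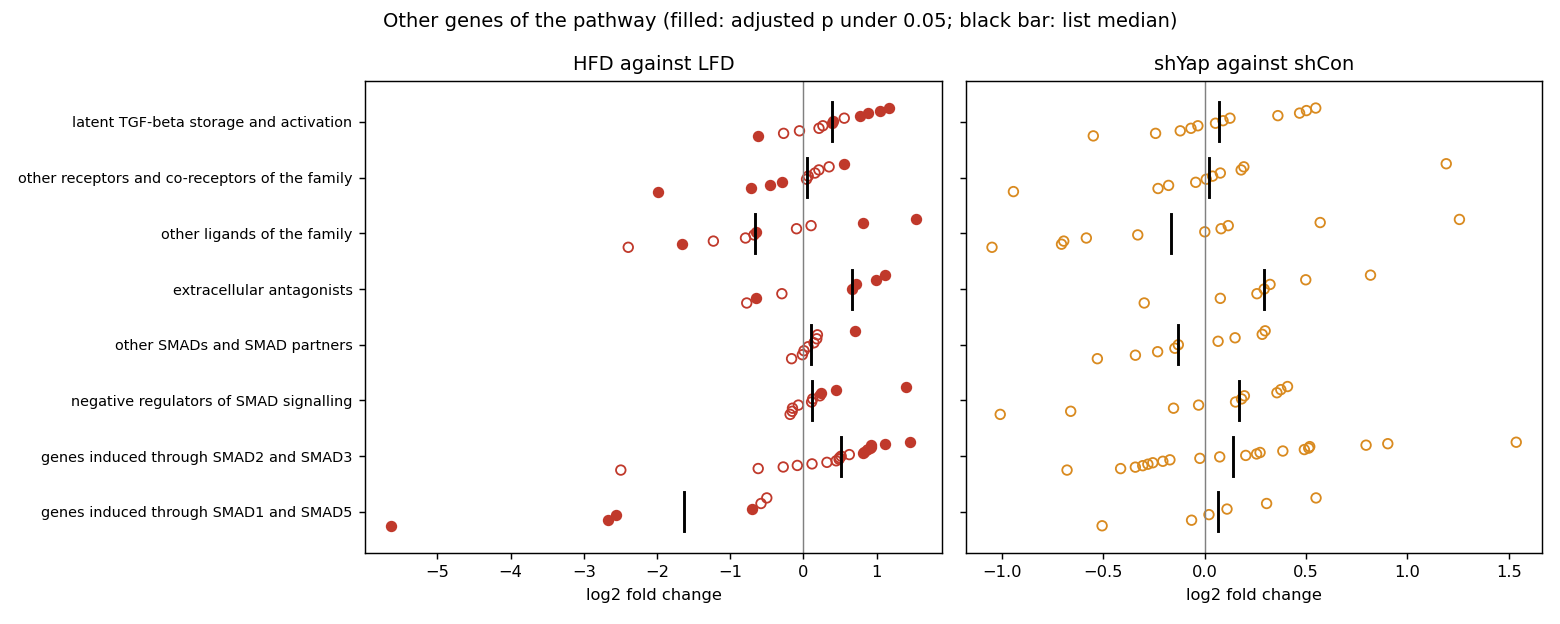
Log2 fold change of each tested pathway gene (points, filled where the adjusted p was under 0.05) by list, with the list median (black bar), for HFD over LFD on the left and shYap over shCon on the right. For diet the medians run from -1.63 (genes induced through SMAD1 and SMAD5) to 0.67 (extracellular antagonists), and for the hairpin no point passed.

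The hairpin comparison asks how the genes differed between high-fat-fed tumours labelled shYap and shCon. No member passed the test: 0 of 10, against 0% of all 16571 genes tested in edgeR. At an unadjusted p under 0.05 stood 1 member, Tgfbr1, and 1804 of all genes, and DESeq2 called 408 genes and 0 members. The groups overlapped for all 10 members, where 6.57% of all genes tested did not overlap (2.61% higher and 3.96% lower). The median log2 fold change was 0.08 over the members and 0.03 over all genes tested.

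Tgfbr1 had 73.3, 61.9, 61.99 and 56.2 CPM in the libraries labelled shYap, against 91.8, 79.7, 89.7 and 67.8 CPM in shCon. Of the shYap libraries 3 of 4 lay below all shCon libraries, and the fold of 0.77 had a 95% interval of 0.621 to 0.956 (log2 fold change -0.38 ± 0.14, unadjusted p = 0.0228, adjusted p = 0.366). The co-receptor gene Tgfbr3 had 53.6, 70.5, 257 and 84.7 CPM in shYap, against 72.6, 49.9, 63.2 and 63.97 CPM in shCon. Replicate 3 of shYap carried this difference, since the log2 fold change was 0.90 ± 0.46 with it (adjusted p = 0.541) and 0.18 without it. Tgfbr2 had 297, 266, 327 and 254 CPM in shYap, against 299.6, 259, 278 and 261 CPM in shCon, with a 95% interval of the fold from 0.857 to 1.27.

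The ligand Tgfb3 had 37.1, 42.4, 103 and 52.2 CPM in the libraries labelled shYap, against 58.5, 54.4, 54.4 and 40.6 CPM in shCon. As for Tgfbr3, replicate 3 of shYap stood above all others, and the log2 fold change of 0.17 ± 0.30 (adjusted p = 0.892) turned to -0.22 without it. Tgfb1 had 202, 156, 139 and 138 CPM in shYap, against 173, 166, 154 and 171 CPM in shCon, a fold of 0.957 with a 95% interval of 0.764 to 1.20. The order of these overlapping groups was not fixed, since Tgfb1 was at 0.02 on the log2 scale without shYap replicate 3. Tgfb2 was low again, at 2.50 to 5.32 CPM in shYap and 3.34 to 4.51 CPM in shCon, with a 95% interval of the fold from 0.639 to 1.44. The ratio of Tgfb3 to Tgfb1 CPM was 0.184 to 0.738 in shYap and 0.237 to 0.354 in shCon.

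Smad2 had 63.0, 58.1, 60.4 and 41.6 CPM in the libraries labelled shYap, against 44.97, 40.4, 44.4 and 49.1 CPM in shCon. Of the shYap libraries 3 of 4 lay above all shCon libraries, and the log2 fold change was 0.32 ± 0.15 (adjusted p = 0.496), with a wider error than for diet. Smad3 had 102, 81.3, 84.8 and 58.8 CPM in shYap, against 83.4, 71.01, 75.8 and 75.5 CPM in shCon. That range covered the shCon libraries, with a log2 fold change of 0.10 ± 0.16 (adjusted p = 0.888) and a ratio of Smad3 to Smad2 CPM of 1.40 to 1.62 in shYap and 1.53 to 1.86 in shCon. Smad7 had 41.1, 27.4, 33.7 and 24.8 CPM in shYap, against 27.6, 25.7, 24.8 and 30.99 CPM in shCon (0.22 ± 0.18, adjusted p = 0.719). Smad4 had 27.1, 29.3, 44.01 and 26.98 CPM in shYap, against 30.5, 31.0, 26.6 and 38.98 CPM in shCon. Again shYap replicate 3 was the high library, and the log2 fold change of 0.004 ± 0.19 became -0.17 without it (adjusted p = 0.620).

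Of 84 other tested genes of the pathway, 0 passed in edgeR. An unadjusted p under 0.05 was found for 18 of them, against 1804 of all 16571 genes tested. The smallest p of the pathway genes was that of Pmepa1, at 117 ± 34.04 CPM in shYap and 235 ± 26.9 in shCon (SD, n = 4 each). Its groups did not overlap, with a log2 fold change of -1.01 ± 0.20 (adjusted p = 0.158). DESeq2 gave an adjusted p of 0.00231 for Pmepa1. Among the pathway genes with the smallest edgeR p of each list, DESeq2 also called Tgif2 (-0.65), Col1a1 (-0.67), Fstl3 (0.82) and Inhbb (1.26). Their adjusted p were 0.0339, 0.0360, 0.0172 and 0.0360. Over all genes DESeq2 called 408 of 17476. The DESeq2 outcomes of the remaining pathway genes are not given here.

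Over these 84 genes 49 had a positive and 35 a negative log2 fold change, against 8929 and 7642 of all 16571 genes tested. Nrros, which holds latent ligand on myeloid cells, was at -0.55 (adjusted p = 0.208), Bambi, a decoy receptor, at -0.94 (adjusted p = 0.323), Bmp2 at -0.71 (adjusted p = 0.347) and Inhba at -0.58 (adjusted p = 0.241). Cdkn1a, a cell cycle inhibitor, was at 0.90 (adjusted p = 0.324), Ppm1a, a phosphatase for receptor-activated SMADs, at 0.41 and Smurf2 at 0.38, while Smad1 was at -0.34 and Msx1 at -0.51. Beside these, the hepatocyte sum was 11080 to 53420 CPM in shYap and 9573 to 31270 CPM in shCon, the fibroblast sum 2709 to 5311 CPM in shYap and 4948 to 5657 CPM in shCon, and the T cell sum 17.8 to 28.2 CPM in shYap and 36.8 to 89.4 CPM in shCon, with 0 markers called in edgeR. Of these markers, 7 of 7 T cell genes and 4 of 8 fibroblast genes had an unadjusted p under 0.05. Among all 16571 genes tested, 1804 did. The part of these cells in the values of the pathway genes was not tested.

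Within groups, the members varied in company that differed from gene to gene. Likeness was measured as the Pearson correlation of deviations of log2 CPM from the group mean over all 18 libraries, among 11136 genes. It is a description, since libraries share depth, scaling and cell makeup. The genes named as most like a member have the highest values over all those genes, so their values are high by selection. The genes most like Tgfb1 were Csf1 (0.956) and Msr1 (0.937), a macrophage growth factor and a macrophage scavenger receptor. Those most like Tgfb3 were Ttc3 (0.951) and Arhgap45 (0.941), and those most like Tgfb2 were Cops8 (0.823) and Myl9 (0.812). For the receptors they were Lpcat2 (0.938) and Trim39 (0.858) for Tgfbr1, Ano6 (0.955) and Ggta1 (0.936) for Tgfbr2, and Mertk (0.975) and Pld1 (0.957) for Tgfbr3. Without shYap replicate 3 the 2 values of Tgfbr3 were 0.951 and 0.920, and those of Tgfb3 were 0.912 and 0.903.

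Smad2 was most like Rfx7 (0.944) and Mpdz (0.908), and Smad3 most like Atg9b (0.936) and Gfod1 (0.917). Smad4 was most like Nsd3 (0.949) and Tpi1 (0.937), with values of 0.924 and 0.899 without shYap replicate 3. Smad7 was most like F2rl1 (0.955) and Socs3 (0.925), a receptor cleaved by proteases and a suppressor of cytokine signalling. Among the 45 pairs of members the median was 0.132, and 26 pairs were above 0. The highest were Tgfb3 with Tgfbr3 (0.733), Smad2 with Smad3 (0.717) and Tgfb1 with Tgfbr2 (0.666), and the lowest was Tgfb2 with Smad4 (-0.577). The value of Tgfb3 with Tgfbr3 was 0.508 without shYap replicate 3, whereas that of Smad2 with Smad3 was 0.719.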

How the data were processed

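RNA of liver metastasis tissue was measured in 18 libraries, in 2 tables. Per the labels and column names, the values the authors deposited are estimated counts, many of them not whole numbers. STAR 2.7.3a, Partek and DESeq2, with GRCm38 and mm10, are named per the submitters' processing notes, with no role or order. The annotation and the library strand are not given in the sources used here. Dates stood in place of 23 gene symbols in the hairpin table, none of them a member.

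Estimated counts were rounded, and each table was fitted alone in R 4.3.3 by the robust quasi-likelihood F test of edgeR 4.0.16, after filterByExpr and with TMM scaling and no covariate. A call is a Benjamini-Hochberg adjusted p under 0.05 over all genes tested, and every adjusted p in the text comes from this fit unless DESeq2 (1.42.0) is named. The standard error is the size of the log2 fold change over the square root of F, and intervals are at 95%. CPM use the TMM-scaled library size. Lengths and coordinates are from GENCODE M21, whose starts the deposited ones match and whose ends they exceed by 1. On simulated counts with known changes, the fit called 52.1% of 2-fold changes for diet and 27.8% for the hairpin. For 4-fold changes these shares were 87.9% and 81.4%. They hold for the simulated counts only. The share of such changes that the fit finds in the measured counts was not tested. Of the genes simulated without a change, 0.0501% were called for diet and 0.0372% for the hairpin.

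The members and lists were chosen with earlier results of these data known. Named genes were all members, Yap1, up to 4 pathway genes per list and comparison by smallest p, and the 2 genes most like each member among genes with a mean of at least 5 CPM in both tables (prior count 2). Some genes under this rule are left out of the text. Xist, Epcam, Cldn7, Krt8 and the further pathway genes that passed were named after their values were seen. Alternatives were DESeq2, RLE and upper-quartile factors, no filter or at least 1 CPM, the replicate number as a block, the closest HFD libraries summed, and each library left out. The fit without LFD replicates 1 and 5 and the length of all exons were added after seeing the data.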

Additional observations from a re-analysis of the deposited data

Results flagged for a closer look

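In groups of 4 or 5 libraries, the gap between the most extreme library and its nearest neighbour was set against the range of the group, over 40 combinations of gene and group. For independent values with a normal spread, chance gives a gap this wide in about 1 in 20 groups. The CPM were not logged, and all combinations draw on the same 18 libraries. The count therefore cannot be set against that share. There were 6 such values. For Tgfbr3, LFD replicate 2 had 138.5 CPM, while the other LFD libraries had 48.5 to 66.03 CPM. For Smad2, LFD replicate 1 had 37.8 CPM, while the others had 44.9 to 47.4 CPM. In LFD replicate 5, Smad4 had 35.1 CPM against 24.2 to 27.2 CPM in the others, and Smad7 had 35.9 CPM against 13.99 to 15.7 CPM. Before scaling, the Smad4 count of that library, 432, lay within the 396 to 480 of the others. The Smad7 count, 441, lay above their 229 to 287. In shYap replicate 3, Tgfbr3 had 257 CPM against 53.6 to 84.7 CPM in the others of its group, and Smad4 had 44.01 CPM against 26.98 to 29.3 CPM. LFD replicate 5 was also the library with the highest hepatocyte sum, 84740 CPM, and shYap replicate 3 the library of its group with the lowest, 11080 CPM. The part of these cells in the values was not tested.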

How the results depend on the processing

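Tgfb3, Smad2 and Smad3 passed for diet under every alternative run, and the count of members called was 3 to 6, with Smad4 and Smad7 added under upper-quartile factors. Over all genes 6710 passed, 3178 higher and 3532 lower, against 3700 higher and 2999 lower with upper-quartile factors, which moved the median of all genes to 0.07, and 4233 with the closest HFD libraries summed. Leaving out each library gave 5523 to 7253 genes and 4 to 6 members. For the hairpin, 0 genes passed, 408 in DESeq2 and 0 to 94 with a library left out (94 without shCon replicate 4 and 1 without shYap replicate 4), and 0 members in each. The log2 fold changes of members near 0 changed sign. For diet these were Tgfb1 with RLE factors (-0.0019) and without LFD replicates 1 and 5 (-0.19), Tgfb2 in DESeq2 (-0.0037), with RLE factors (-0.0109), with the block (-0.0299) and without LFD replicates 1 and 5 (-0.0045), and Tgfbr1 with upper-quartile factors (0.0556). With a library left out, Tgfb1 ran from -0.0745 to 0.21, Tgfb2 from -0.15 to 0.17 and Tgfbr1 from -0.12 to 0.0433. For the hairpin, Smad4 was at -0.0271 with upper-quartile factors and -0.0148 with the block. With a library left out, values for shYap against shCon ran from -0.20 to 0.0187 for Tgfb1, -0.24 to 0.13 for Tgfb2, -0.22 to 0.34 for Tgfb3, -0.0273 to 0.23 for Smad3, -0.17 to 0.12 for Smad4, -0.10 to 0.75 for Itgb8 and -0.0722 to 0.73 for Chrd. The cause was not tested. With the replicate number as a block, 4929 genes and 4 members passed for diet and 0 and 0 for the hairpin. The deviations of same-numbered libraries correlated at -0.50 to 0.31 for diet and -0.05 to 0.18 for the hairpin. No HFD library correlated best with the LFD library of its number, and for the hairpin only replicate 4 did. As not every pair exceeded 0.1, the numbers were not taken to pair the samples. The block used the numbers of the titles, and the table's columns number shYap replicates 3 and 4 as 4 and 5. With 4 or 5 libraries a group, the intervals beside each fold give the limit of what could be seen.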
